A study of Mus musculus with 2 samples.

Results

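The 37 genes described here drive or mark the cell division cycle. They were chosen by name and all 37 were found among the 31053 genes counted. They fall into 12 S-phase genes (DNA replication and nucleotide supply), 17 mitotic genes (late cycle and cell division), 6 G1 genes (the D and E cyclins and the inhibitor Cdkn1a) and 2 broadly expressed genes (Stmn1 and Hmgb2). Messenger RNA was counted as unique molecular identifiers (UMIs, each standing for 1 captured transcript) by droplet sequencing of transcript 3′ ends in sorted liver leukocytes of C57BL/6 mice. Non-parenchymal cells were purified over a gradient and sorted for the leukocyte marker CD45 and the integrin CD11b. The 2 groups had 1 library each, made from 5 pooled mice: Ctrl came from controls without liver injury, and RES from animals after resolution of liver fibrosis. Neither what caused the fibrosis nor the age of the mice is given in the sources used here. With 1 library per group there is no replicate check of any difference, and library and group cannot be told apart.

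A cell that enters the cycle first builds up D cyclins, which activate Cdk4 and Cdk6 and release E2F factors from the retinoblastoma protein. E2F then switches on the S-phase genes, and the mitotic genes follow, most of them repressed in resting cells by the DREAM complex. Most blood monocytes, granulocytes and mature natural killer (NK) cells rest, while tissue dendritic cell precursors, plasmablasts and activated lymphocytes can divide.

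Ctrl held 20379164 UMIs over 3691 barcodes, of which 3337 were used as cells (median depth 4507 UMIs). RES held 34119806 over 4278 barcodes, of which 4011 were used (median 6360). Levels are CPM (the UMIs of a gene scaled to 1000000 UMIs of the same cells), values are given as Ctrl and then RES, and ratios are RES to Ctrl on the log2 scale. Intervals are at the 95% level and describe counting error alone. Cells were classed by marker genes, and the libraries differed in makeup: NK cells numbered 1433 in Ctrl and 1416 in RES, and monocytes and macrophages 1008 and 1965. The sort markers were checked: Ptprc (CD45) had a UMI in 98.1% and 98.0% of cells, and Itgam (CD11b) in 55.0% and 74.5%, but in 9.09% and 15% of the T cells (33 and 40). Itgam was also low in type 1 conventional dendritic cells (10.5% and 23.8%), migratory dendritic cells (6.67% and 10.7%) and B cells (30.8% and 31.2%). Neutrophil markers were low, at 40.4 and 58.4 CPM for the list of 10, with 3 and 2 of them at 0. Of the barcode sequences, 56 occurred in both libraries.

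Few cells had many mitotic genes, and these cells held most of the mitotic UMIs. A cell with UMIs of 5 or more of the 17 mitotic genes is called dividing here. Ctrl had 42 such cells of 3337 (1.26%, 0.909 to 1.70, exact Clopper-Pearson interval) and RES had 28 of 4011 (0.698%, 0.464 to 1.01), a difference of -0.56 percentage points (-1.05 to -0.11, Newcombe interval). With every cell thinned to 1000 UMIs, 38 of 3231 Ctrl cells (1.18%) and 19 of 3960 RES cells (0.480%) had 2 or more mitotic genes, a difference of -0.70 percentage points (-1.16 to -0.28), while unthinned shares were 5.51% and 5.36%. The share in nonclassical monocytes, a resting class, was 0.307% and 0.167% thinned. The dividing cells held 65.5% of all mitotic UMIs in Ctrl and 52.0% in RES, but 23.3% and 16.3% of the S-phase UMIs. A dividing cell had on average 65.0 mitotic UMIs in Ctrl and 70.3 in RES, against 0.435 and 0.456 in the other cells. The shares of mitotic UMIs and these averages follow in part from the call, which uses the same genes. The threshold fell in a sparse stretch: 11 Ctrl and 5 RES cells had 4 mitotic genes, and 3 and 3 had 5. Dividing cells were deeper than the rest, with a median of 12941 and 15766 UMIs against 4464 and 6307, and the part of depth or of unseen doublets in the call was not tested.

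**Figure D1:**
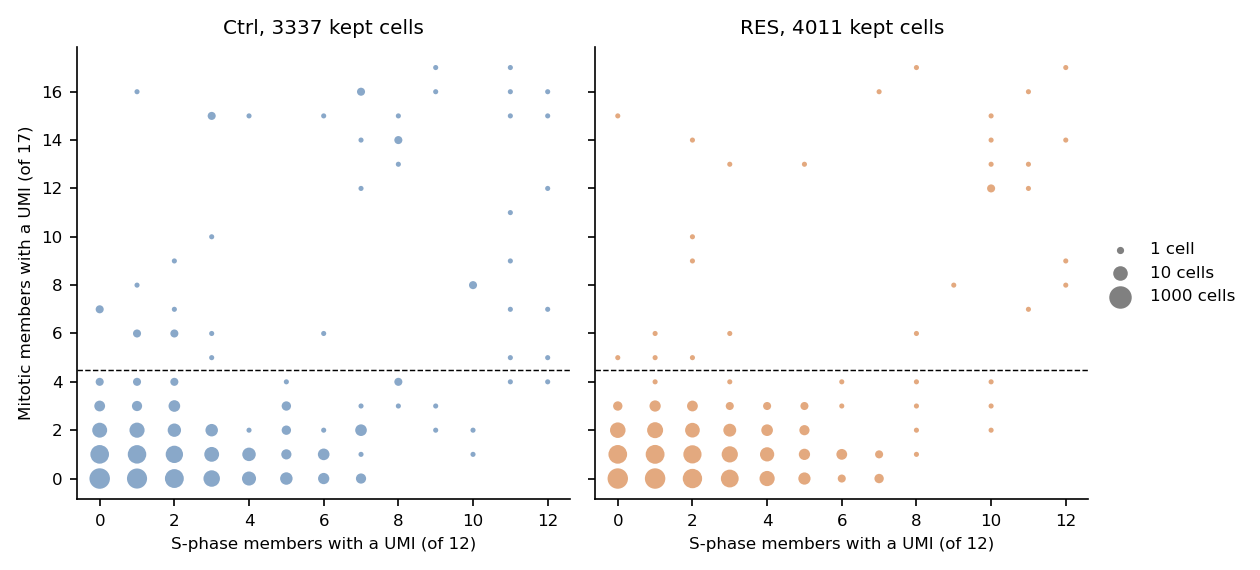
Each point places cells by how many of the 12 S-phase genes (horizontal axis) and of the 17 mitotic genes (vertical axis) had a UMI, for Ctrl (left) and RES (right), with the point's area growing with the log of the number of cells. The dashed line marks the limit of 5 mitotic genes, above which 42 Ctrl and 28 RES cells lie, some with 0 to 3 S-phase genes and others with up to 12.

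Of the dividing cells, 26 in Ctrl and 18 in RES also had 5 or more S-phase genes. Another 33 Ctrl cells (0.989%) and 28 RES cells (0.698%) had 5 or more S-phase genes and fewer than 2 mitotic ones; the difference, -0.29 percentage points (-0.74 to 0.13), was not detectable at this depth. Some genes of the pathway that played no part in the call were concentrated in the same cells. Hmmr, which binds the spindle, had 96.1% of its 155 UMIs there, and Nusap1, a microtubule-binding protein, 94.0% of its 283. Nuf2, a kinetochore subunit, had 95% of 60 and the kinesin Kif11, which pushes spindle poles apart, 82.2% of 219. Clspn, which works at stalled replication forks, had 41.3% of its 344 UMIs there and the helicase Hells 16.0% of 538. Others were also seen widely elsewhere. In nonclassical monocytes, where no cell was dividing, the mitosis genes Cks2 and Bub3 had 193 and 579, and 139 and 305 UMIs.

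By class, most dividing cells were lymphocytes or dendritic cells. NK cells gave 12 and 5, type 2 conventional dendritic cells (cDC2) 7 and 2, and the type 1 kind (cDC1) 4 and 5. T cells gave 7 of 33 and 2 of 40, and cells with plasma cell markers 5 of 9 and 1 of 4. Macrophages gave 1 of 109 and 4 of 383, and classical monocytes 0 of 474 and 2 of 691. None was found among nonclassical monocytes (331 and 611 cells), innate lymphoid cell type 1 (ILC1)-like cells (99 and 44), plasmacytoid dendritic cells (pDC; 21 and 8) or migratory dendritic cells (30 and 28). No class was given to 6 and 5 of them. In the clustering, 44 of the 70 fell into a single cluster of 87 Ctrl and 24 RES cells with a median of 943 UMIs. Its leading markers were those of plasma cells, but by the marker gates it was mixed. It held 8 and 2 plasma cells, 30 and 3 monocytes and macrophages, 9 and 5 NK cells, and 29 and 6 cells without a class. The dividing cells of both libraries had a median of 13815 UMIs. The plasma cell list stood at 296 CPM in Ctrl and 73.7 in RES over all cells, and its part in the counts was not tested.

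The members differed in how closely they kept to the dividing cells, here called without the member in question. Birc5, an inhibitor of apoptosis that also sits in the chromosomal passenger complex, had 93.1% of its UMIs there, the S/G2 cyclin Ccna2 92% and Bub1, a spindle checkpoint kinase, 88%. Plk1, a mitotic kinase, stood at 86.1%, the kinetochore protein Cenpf at 85.5% and Ube2c, which works with the anaphase-promoting complex, at 83.5%. Mki67, which coats mitotic chromosomes, had 74.4% and Top2a, which untangles sister DNA, 64.5%. Tpx2 (77.9%), Ccnb2 (82.8%), Cenpe (74.9%), Ccnb1 (70.5%), Cdk1 (70.3%) and Cdc20 (62.1%) lay in the same range, and the kinases Aurkb and Aurka lower, at 39.6% and 37.8%. Cenpa, the centromeric histone, was the exception among the mitotic genes, with 14.1% of 2076 UMIs in dividing cells; 18% of the other cells had a Cenpa UMI.

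Among S-phase genes, Pclaf (a partner of PCNA) and Rrm2 (the regulated subunit of ribonucleotide reductase) lay in the range of the mitotic genes, with 83.9% and 80.8%. Tk1, thymidine kinase, had 53.6%. The 6 subunits of the MCM helicase, Mcm2 to Mcm7, lay between 7.8% and 16.5%, and Pcna, the sliding clamp, at 6.0%, with a UMI in 31.0% of the other cells. Stmn1, which destabilises microtubules, had 49.4% and Hmgb2, a chromatin protein, 16.4%. The D cyclins and Cdkn1a were lowest, from 0.79% for Cdkn1a to 3.7% for Ccnd1.

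**Figure D2:**
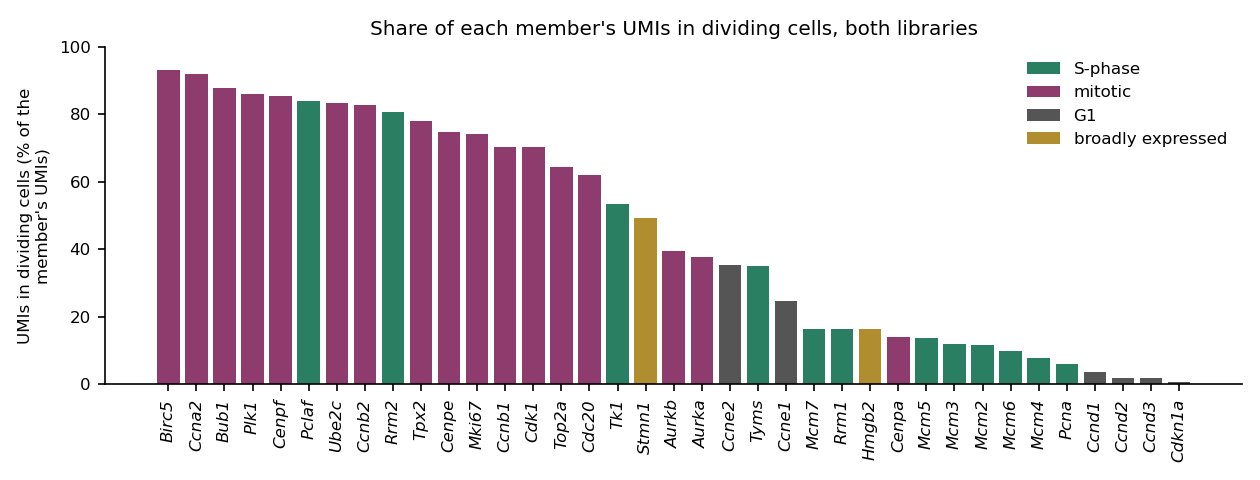
Bars give the percent of each member's UMIs, both libraries together, that lay in dividing cells called from the other mitotic genes, with the colour giving the role. Mitotic genes reach up to 93.1% with Cenpa at 14.1%, and the D cyclins and Cdkn1a lie at or below 3.7%.

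The S-phase and mitotic genes also differed in promoter sequence, which played no part in their choice. RefSeq promoters (GRCm38.p6, 250 bases before to 50 after the start, 300 in all) were at hand for 29 of the 37 members. Each was searched on both strands for 3 kinds of word, which may overlap. The first was TTTGAA, the core of the cell cycle homology region that the DREAM complex and its partners bind. Next came the NF-Y box, written CCAAT in the forward direction. For E2F, 4 related words were used: the form TTCCCGC was searched, then TTGGCGC in the same way, with TTCGCGC as another variant and lastly TTGCCGC as well. TTTGAA was in 10 of 14 mitotic promoters (71.4%) and 1 of 11 S-phase promoters (9.09%), against 17.9% of all 32851 promoters of the table. An E2F word was in 7 of 11 S-phase promoters (63.6%) and 3 of 14 mitotic ones (21.4%), against 9.57% of all. CCAAT was in 13 of 14 mitotic (92.9%) and 9 of 11 S-phase promoters (81.8%), against 37.4% of all, and 2 or more copies in 11 and 6 of them, against 11.7% of all. The pathway genes outside the members held TTTGAA in 25 of 35 mitosis promoters and 3 of 22 replication promoters, and an E2F word in 7 and 18.

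The promoters of the 3 S-phase and the 3 mitotic members with the most UMIs are shown to let these words be seen in place, from 120 bases before to 22 after the start, 5′ to 3′ on the gene's strand. Capitals mark the words searched, on either strand. A box on the opposite strand reads ATTGG here, and the DREAM word then reads TTCAAA in its place. The S-phase promoters are Pcna (chr2:132253159-132253300, minus strand), Mcm6 (chr1:128359684-128359825, minus) and Mcm3 (chr1:20820291-20820432, minus). The mitotic ones are Cenpa (chr5:30666766-30666907, plus strand), Top2a (chr11:99024168-99024309, minus) and Mki67 (chr7:135716358-135716499, minus).
Pcna: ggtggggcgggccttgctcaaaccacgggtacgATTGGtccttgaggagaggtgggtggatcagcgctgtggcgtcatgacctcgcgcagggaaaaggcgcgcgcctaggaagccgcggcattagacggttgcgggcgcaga
Mcm6: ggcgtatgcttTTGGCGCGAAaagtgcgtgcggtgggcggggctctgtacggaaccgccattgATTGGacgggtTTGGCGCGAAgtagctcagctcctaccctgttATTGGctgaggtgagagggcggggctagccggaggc
Mcm3: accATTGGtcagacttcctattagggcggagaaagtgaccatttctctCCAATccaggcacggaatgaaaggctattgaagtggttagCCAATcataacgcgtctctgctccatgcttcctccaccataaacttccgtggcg
Cenpa: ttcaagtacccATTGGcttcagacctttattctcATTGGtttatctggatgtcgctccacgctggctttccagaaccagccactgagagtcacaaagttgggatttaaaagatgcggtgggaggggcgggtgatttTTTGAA
Top2a: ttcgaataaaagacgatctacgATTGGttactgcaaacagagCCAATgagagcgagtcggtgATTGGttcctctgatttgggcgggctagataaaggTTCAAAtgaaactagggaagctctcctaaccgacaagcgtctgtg
Mki67: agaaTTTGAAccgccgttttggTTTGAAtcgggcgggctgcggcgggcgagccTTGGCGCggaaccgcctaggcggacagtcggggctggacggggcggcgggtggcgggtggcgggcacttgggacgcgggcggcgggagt
Mcm6 holds 2 pairs of overlapping E2F words, Top2a 3 NF-Y boxes upstream of its DREAM word, and Mki67 2 DREAM words and 1 E2F word. Cenpa carries its DREAM word just past the start, and Pcna shows a single NF-Y box in this window. A match describes letters and is neither a bound site nor a cause of the levels that follow.

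Summed over all kept cells and scaled to depth, both programmes were lower in RES, the mitotic one by more; counted per cell, the S-phase sum was not lower. The 17 mitotic genes gave 4162 UMIs in Ctrl and 3785 in RES, which is 219 and 118 CPM and a log2 ratio of -0.89 (-0.95 to -0.82). The 12 S-phase genes gave 5098 and 6418 UMIs, 268 and 201 CPM, and a log2 ratio of -0.42 (-0.47 to -0.36), which was 0.07 when UMIs were counted per cell without scaling to depth. That per-cell scale adds 0.48 to every log2 ratio over all cells, since a RES cell held more UMIs. In such sums, fewer dividing cells and less RNA per cell cannot be told apart. Without the dividing cells the mitotic ratio was -0.43 (-0.53 to -0.33) and the S-phase ratio -0.31 (-0.37 to -0.25). With the RES classes weighted to their Ctrl shares the ratios were -0.46 and -0.19.

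All 37 members had at least 50 UMIs over both libraries. Of them 19 were at least 1.5-fold lower in RES (8.75% of the 11721 genes measured were) and 1, Cdkn1a, at least 1.5-fold higher (7.36% were). The lower ones were 12 of the 17 mitotic genes, 3 of the 12 S-phase genes (Rrm2, Pclaf and Mcm5), 3 G1 genes (Ccnd1, Ccnd2 and Ccne2) and Stmn1. The median log2 ratio was -1.08 over the mitotic genes and -0.45 over the S-phase genes, against -0.03 over all genes measured; on the per-cell scale the S-phase median turns above 0.

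Mki67 stood at 35.6 CPM in Ctrl and 16.7 in RES, a log2 ratio of -1.10 (-1.26 to -0.93). Top2a stood at 40.8 and 18.9 CPM, -1.11 (-1.27 to -0.96). Ube2c had the lowest ratio of the mitotic genes, 16.6 and 6.01 CPM, -1.47 (-1.73 to -1.20). At the other end was Aurkb, a kinase of the chromosomal passenger complex, at 5.0 and 4.23 CPM, with an interval of -0.63 to 0.15 that spans 0. The mitotic cyclins Ccna2, Ccnb1 and Ccnb2 had log2 ratios of -1.28, -1.01 and -1.14, and their kinase Cdk1 one of -0.55 (-1.0 to -0.10). Aurka, a spindle pole kinase (58 and 69 UMIs), and Cdc20, the activator of the anaphase-promoting complex (57 and 75), had intervals that span 0. Birc5, Cenpf, Cenpe, Tpx2, Plk1 and Bub1 lay between -1.39 (Cenpf) and -0.71 (Bub1). Cenpa, seen broadly outside dividing cells, was at 47.8 and 36.6 CPM, -0.39 (-0.51 to -0.26).

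The S-phase genes ranged from Pclaf, at 29.2 and 13.9 CPM and a log2 ratio of -1.07 (-1.25 to -0.89), to Pcna, at 65.0 and 61.9 CPM and -0.07 (-0.17 to 0.03). The 2 genes of this group with the lowest ratios, Pclaf and Rrm2 (5.84 and 3.04 CPM), were those kept most closely to dividing cells. Mcm6 lay between, at 31.4 and 23.0 CPM, -0.45 (-0.60 to -0.29), and Mcm3 at 25.8 and 19.5 CPM, -0.41 (-0.58 to -0.23). Among the other S-phase genes, Rrm1, the large subunit of ribonucleotide reductase, was at 21.6 and 15.5 CPM and Tk1 at 4.58 and 3.41. Mcm2, Mcm4, Mcm5 and Mcm7 had log2 ratios from -0.66 for Mcm5 to -0.31 for Mcm2, and Tyms one of -0.18 with an interval from -0.52 to 0.16. Stmn1 was at 66.6 and 35.6 CPM, -0.90 (-1.02 to -0.79), and Hmgb2 at 437 and 400 CPM, -0.13 (-0.17 to -0.09).

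The wider pathway, from lists chosen alongside the members, was lower in its mitotic branch. Among 38 mitosis genes measured, 24 passed 1.5-fold towards lower levels in RES (8.75% of all genes did) and 0 towards higher ones (7.36% did), and their median log2 ratio was -0.79. Of 27 replication and repair genes, 11 were lower and 0 higher, with a median of -0.44 that turns above 0 on the per-cell scale. None of 13 E2F and pocket protein genes, 9 cycle brakes and 6 G1 kinase genes passed 1.5-fold over all cells. Of 12 p53 targets other than Cdkn1a, 2 were higher, Phlda3 (3.21 and 7.01 CPM) and Gadd45a (5.79 and 9.36), and 0 lower, too few to set apart from the 7.36% of all genes.

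**Figure D3:**
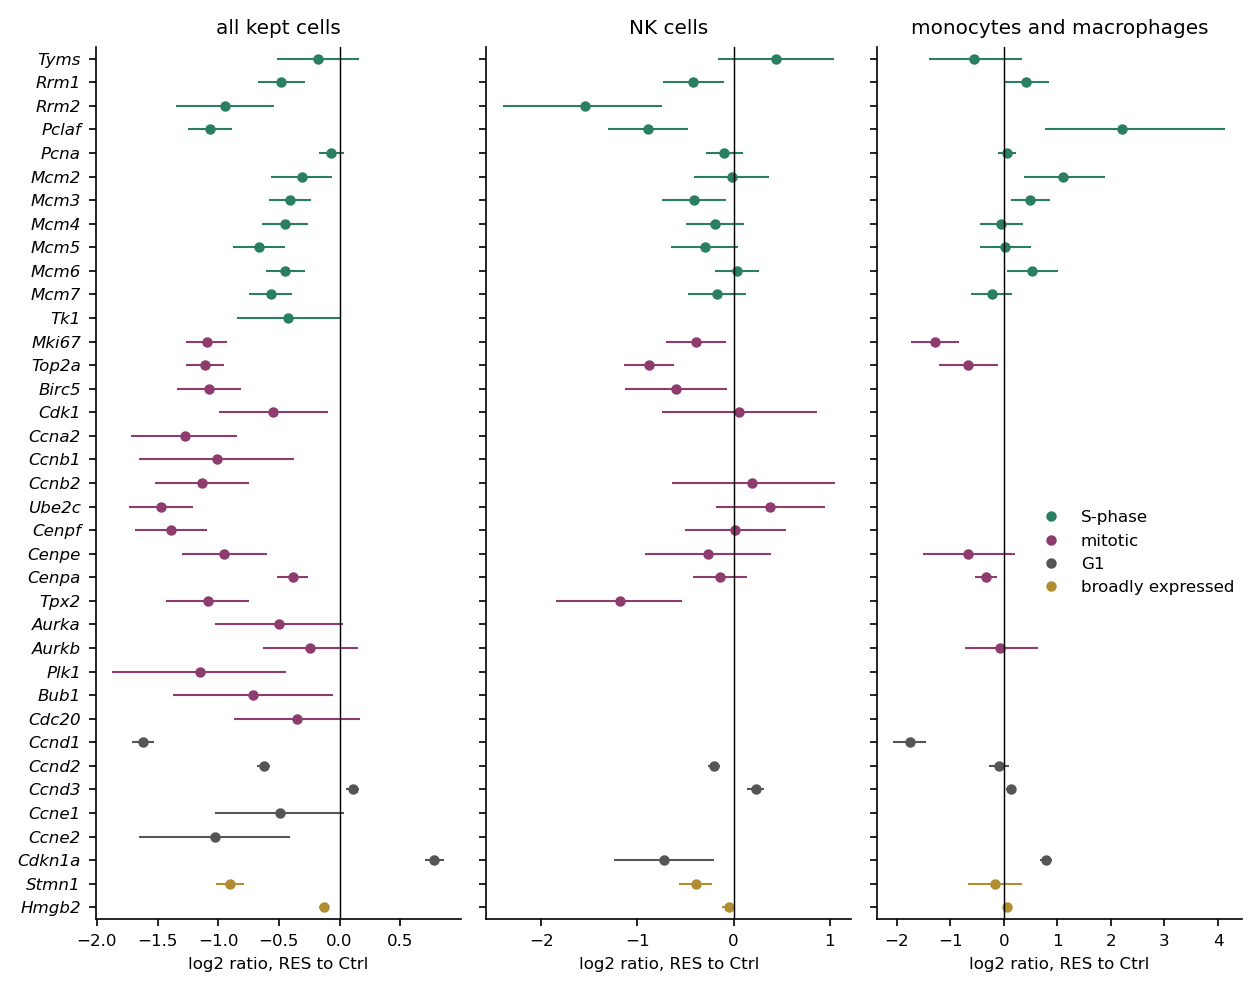
Points give the log2 ratio RES to Ctrl of each member's summed UMIs, scaled to the UMI total of the cells, with the 95% counting interval as a line, in all kept cells, NK cells and monocytes and macrophages; members under 50 UMIs in a class are left out. Mitotic genes lie from -1.47 to -0.24 over all cells and from -1.18 to 0.38 in NK cells, and S-phase genes lie on both sides of 0 in monocytes and macrophages; on the scale of UMIs per cell every point would lie 0.48, 0.32 and 0.47 further right in the 3 panels.

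Levels differed widely between classes. T cells stood at 2449 CPM of mitotic genes in Ctrl and 529 in RES, and cells with plasma cell markers at 2491 and 2015, both resting on the few dividing cells counted above. cDC1, which cross-present antigen to killer T cells, came next in Ctrl, with 575 and 696 CPM of mitotic and 506 and 630 of S-phase genes. In RES the cDC1 value of mitotic genes (636 to 759) lay above that of T cells (444 to 624). Of these UMIs 96.4% and 95.7% lay in 10 cells of each class, so this order rests on few cells. cDC2 had 283 and 133 CPM of mitotic genes, and NK cells 217 and 168. Classical monocytes had 69.3 and 70.3, ILC1-like cells 59.2 and 63.4, and nonclassical monocytes, taken as the resting background, 44.9 and 40.7. In the order of Ctrl mitotic levels, plasma cells and T cells came first with overlapping intervals. Next were cDC1 and cDC2, each apart from its neighbours by counting error alone. NK cells and macrophages (192 CPM) overlapped. B cells (88.3), classical monocytes, intermediate monocytes (67.3), ILC1-like cells, pDC (54.6), nonclassical monocytes and migratory dendritic cells (32.9) each overlapped with the next.

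**Figure D4:**
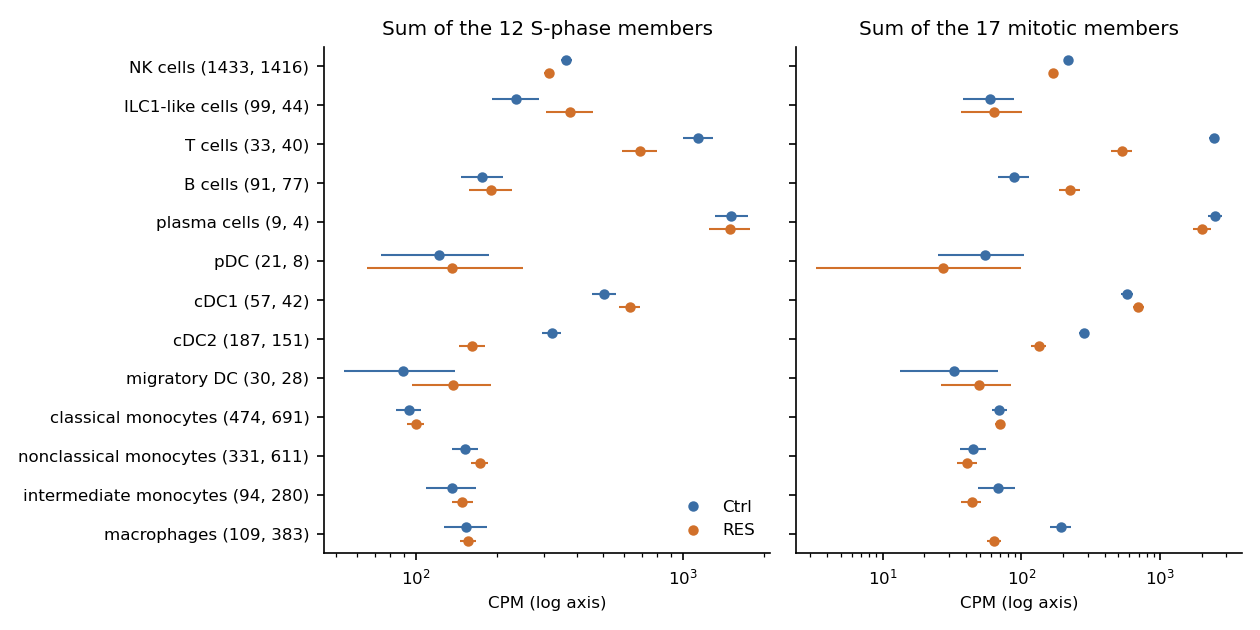
Points give the summed CPM of the 12 S-phase genes (left) and the 17 mitotic genes (right) in each class on a log axis, blue for Ctrl and orange for RES, with exact 95% Poisson intervals; the numbers of Ctrl and RES cells stand in brackets. T cells and plasma cells reach 2449 and 2491 CPM of mitotic genes in Ctrl, cDC1 lie at 575 and 696, and classical monocytes at 69.3 and 70.3.

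In NK cells, innate killers and the largest single class, both sums were slightly lower in RES when scaled to depth, and only the mitotic one, barely, when counted per cell. The mitotic genes gave 1112 and 1064 UMIs, 217 and 168 CPM, a log2 ratio of -0.36 (-0.49 to -0.24) that was -0.05 counted per cell. The S-phase genes gave 1872 and 1988 UMIs, 365 and 315 CPM, a log2 ratio of -0.21 (-0.30 to -0.12) that turned to 0.10 counted per cell. Of 26 members with at least 50 UMIs, 6 were at least 1.5-fold lower (2.19% of 9088 genes measured were) and 0 higher (2.34% were): Rrm2, Pclaf, Top2a, Birc5, Tpx2 and Cdkn1a. Rrm2 had the lowest S-phase ratio, with 45 and 19 UMIs (8.77 and 3.01 CPM), and Tyms, thymidylate synthase, the highest, with 39 and 65 (7.60 and 10.3 CPM, interval -0.16 to 1.05). Pcna (81.2 and 76.0 CPM), Mcm6 (55.7 and 57.1) and Mcm4 (35.7 and 31.2) had intervals that span 0.

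Top2a led the mitotic genes of NK cells with 59.0 and 32.1 CPM, -0.88 (-1.14 to -0.62), and without it the mitotic ratio was -0.21. Cenpa was at 40.5 and 36.7 CPM and Mki67 at 35.5 and 27.1, the latter -0.39 (-0.70 to -0.08). Tpx2, a spindle assembly factor, was lowest at 11.5 and 5.07 CPM, and Ube2c highest at 8.77 and 11.4 with an interval from -0.18 to 0.95. Under stricter gates the mitotic ratio was -0.69. After thinning every cell to 1000 UMIs, 10 of 1410 Ctrl NK cells (0.709%, 0.341 to 1.30) and 3 of 1407 RES NK cells (0.213%, 0.044 to 0.622) had 2 or more mitotic genes, against 0.307% and 0.167% in nonclassical monocytes. The difference, -0.50 percentage points (-1.10 to 0.03), was not detectable at this depth. Unthinned, the shares were 3.0% and 2.9%.

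cDC2, which present antigen to helper T cells, had the lowest S-phase ratio of the classes that numbered 100 cells or more on both sides. S-phase genes gave 557 and 319 UMIs, 322 and 162 CPM, -0.99 (-1.19 to -0.79), and the mitotic genes 489 and 262 UMIs, 283 and 133 CPM, -1.09 (-1.31 to -0.87). Of 18 members with at least 50 UMIs, 13 were at least 1.5-fold lower (6.94% of 6468 genes were) and 1, Ccnd2, higher (8.57% were). Pclaf was lowest, with 103 UMIs in Ctrl and 19 in RES (59.5 and 9.65 CPM), and Pcna highest of the S-phase genes, at 52.6 and 47.2 CPM with an interval from -0.59 to 0.28. Mcm3 was at 37.6 and 19.8 CPM, -0.92 (-1.53 to -0.33). Top2a was at 48.0 and 18.8 CPM, Mki67 at 38.1 and 14.7, Ube2c at 26.6 and 6.6 and Cenpa at 71.7 and 45.2. Without the 7 and 2 dividing cells, the ratios were -0.74 (-1.08 to -0.40) for mitotic and -0.55 (-0.78 to -0.31) for S-phase genes. The per-cell scale adds 0.49 to each log2 ratio over all cDC2, and both sums stay below 0 on it. Without the dividing cells, a shift of that size would take up most of the S-phase ratio.

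In monocytes and macrophages together, S-phase genes were slightly higher in RES and mitotic genes lower when scaled to depth but not per cell. The class drew on different clusters: cluster 17, high in Arg1 and Spp1, held 13 of its 1008 Ctrl cells and 615 of its 1965 RES cells. S-phase genes gave 859 and 2632 UMIs, 121 and 137 CPM, 0.18 (0.07 to 0.29), and mitotic genes 535 and 1124 UMIs, 75.1 and 58.3 CPM, -0.37 (-0.52 to -0.21), which turned to 0.11 counted per cell. Of 21 members with at least 50 UMIs, 3 were at least 1.5-fold higher (10.5% of 10171 genes were) and 4 lower (6.8% were). The higher ones were Pclaf (4 and 50 UMIs), Mcm2 (19 and 110) and Cdkn1a, and the lower ones Mki67 (11.5 and 4.72 CPM), Top2a (6.6 and 4.15), Cenpe (2.81 and 1.76, interval -1.51 to 0.20), a kinesin of the kinetochore, and Ccnd1. Mcm3 was at 11.6 and 16.3 CPM, 0.49 (0.13 to 0.85), Rrm1 at 8.70 and 11.7, and Pcna at 55.9 and 58.2. Tyms had the lowest S-phase ratio (2.67 and 1.82 CPM, interval -1.40 to 0.33), Cenpa was at 40.1 and 31.7 CPM, and Aurkb the highest mitotic ratio, -0.06 (-0.72 to 0.64). Thinned, 3 of 966 and 5 of 1949 cells had 2 or more mitotic genes, a difference of -0.05 percentage points (-0.67 to 0.35), and 4.27% and 5.29% did unthinned.

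Of its subsets, classical monocytes, recruited from blood into injured tissue, showed little difference in either sum: 93.8 and 99.5 CPM of S-phase genes (interval -0.10 to 0.27) and 69.3 and 70.3 of mitotic genes (-0.20 to 0.24). Of 14 members with at least 50 UMIs there, 1 was at least 1.5-fold higher (6.57% of genes were), Aurkb with 12 and 42 UMIs, and 3 lower (5.0% were), Mki67 with 42 and 46, Ccnd1 and Ccnd2. Birc5 had 0 and 18 UMIs and Tpx2 0 and 12, both under the limit of 50. At most 10 RES cells held all of the Birc5 UMIs. Without the 2 dividing RES cells the mitotic sum was 69.3 and 62.8 CPM (-0.36 to 0.08). Cenpa made up 171 of the 257 and 309 of the 522 mitotic UMIs. Classical monocytes also drew on different clusters: cluster 8 held 122 of 474 Ctrl and 32 of 691 RES cells, and cluster 17 held 4 and 108. The part of this makeup in their values, here and below, was not tested. In nonclassical monocytes, which patrol vessels, the S-phase sum was 152 and 173 CPM (-0.02 to 0.38) and Cenpa was the one mitotic gene with at least 50 UMIs, at 22.7 and 18.4 CPM. Of 12 members measured in them, 2 were at least 1.5-fold higher (7.87% of genes were), Rrm1 and Mcm6, both with intervals that span 0, and 0 lower (2.62% were). Scaled to depth, intermediate monocytes had 67.3 and 43.7 CPM of mitotic genes, -0.62 (-1.12 to -0.10). Macrophages had 192 and 63.9 CPM of mitotic genes, -1.59 (-1.88 to -1.29), but the 10 highest cells held 81.2% of the Ctrl sum. Without dividing cells it was 74.0 and 44.2 CPM, -0.74 (-1.18 to -0.29), which turns above 0 on the per-cell scale. Of 13 macrophage members measured, 2 were at least 1.5-fold higher (21.2% of genes were) and 5 lower (17.6% were). Most Ctrl macrophages (55 of 109) lay in cluster 13, high in C1q genes, and most RES macrophages (333 of 383) in cluster 17, high in Arg1 and Spp1, so the class does not hold like cells in both libraries. Within cluster 13, mitotic genes stood at 86.7 CPM (54.3 to 131) and 354 (225 to 532), and 1 of its 11 RES cells was dividing. In cluster 12 (31 and 17 cells) they stood at 86.9 and 81.7 CPM. In cluster 17 (7 and 333 cells) they stood at 18.3 and 45.1 CPM, from 1 and 189 UMIs. Clusters 13, 12 and 17 held 22, 28 and 1 of the 144 Ctrl mitotic UMIs and no dividing Ctrl cell. The split thus leaves out most of the whole Ctrl sum, but it holds most of the 55 Ctrl mitotic UMIs outside dividing cells. In cluster 12 the Poisson intervals overlapped (57.7 to 126 and 44.7 to 137), as in cluster 17 (0.463 to 102 and 38.9 to 52.0). In cluster 13 the RES value was the higher one. These clusters thus did not show the lower RES level of the class, and the part of makeup was not tested.

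The small classes gave values with wide intervals. In cDC1 (57 and 42 cells) Mki67 was at 77.2 and 137 CPM, 0.83 (0.35 to 1.33), and Top2a at 102 and 172, 0.76 (0.33 to 1.19). Without the dividing cells, cDC1 had 69.7 and 83.3 CPM of mitotic genes (-0.36 to 0.87) and 471 and 309 of S-phase genes, -0.61 (-0.88 to -0.34). ILC1-like cells (99 and 44) had 237 and 377 CPM of S-phase genes, 0.67 (0.25 to 1.09), from 96 and 101 UMIs, with Mcm6 at 13 and 25 UMIs and Mcm7 at 7 and 19. The 10 highest cells held 32.3% and 62.4% of those UMIs, and the 2 libraries filled the class from different clusters, with 74 Ctrl and 11 RES cells in cluster 11 and 13 and 26 in cluster 0. B cells (91 and 77) had 88.3 and 223 CPM of mitotic genes, and without the 1 dividing RES cell 88.3 and 94.2.

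The G1 genes differed by cell class and lay mostly outside dividing cells. The D cyclins bind Cdk4 and Cdk6. Ccnd1 (chr7:144929931-144939925, minus strand, GRCm38, GENCODE M21) was high in dendritic cells: 1504 and 1650 CPM in pDC, 473 and 283 in cDC1, 670 and 306 in cDC2 and 352 and 354 in migratory dendritic cells. It was 3.12 and 1.90 CPM in NK cells, and 0 of 33 Ctrl and 0 of 40 RES T cells had a UMI. Thinned to 1000 UMIs, 76.2% of Ctrl and 87.5% of RES pDC had a Ccnd1 UMI (16 of 21 and 7 of 8; unthinned 20 of 21 and 8 of 8), against 0.307% and 0.167% of nonclassical monocytes.

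Ccnd2 (chr6:127125162-127152193, minus) was seen in lymphoid, dendritic and some myeloid classes, among them macrophages (135 and 72.3 CPM). In pDC it had 39 UMIs in Ctrl and 0 in RES. It stood at 734 and 638 CPM in NK cells, -0.20 (-0.27 to -0.14; above 0 per cell), 1039 and 709 in ILC1-like cells, which came from different clusters in the 2 libraries, and 432 and 487 in T cells. Migratory dendritic cells had 390 and 507 CPM, plasma cells 244 and 622, and B cells 139 and 117. In classical monocytes it was at 25.6 and 11.7, -1.13 (-1.57 to -0.69). Ccnd3 (chr17:47505051-47599691, plus) was seen in every class of at least 20 cells in each library and ranged there from 42.3 CPM in Ctrl migratory dendritic cells to 385 in RES NK cells. It was higher in RES classical monocytes, 158 and 235 CPM, 0.58 (0.44 to 0.71), and in RES NK cells, 329 and 385 CPM, 0.23 (0.14 to 0.32), with both of those above 0 on the per-cell scale as well. The classical monocytes came in part from different clusters in the 2 libraries. Reads that Ccnd3, Pcna, Ccnb1, Ccnb2, Tyms or Stmn1 share with annotated pseudogenes may be counted or dropped in ways the sources used here do not give.

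In cDC2 the D cyclins differed in direction. Ccnd1 had 1159 and 602 UMIs, 670 and 306 CPM, -1.13 (-1.28 to -0.99). Ccnd2 had 245 and 508 UMIs, 142 and 258 CPM, 0.87 (0.64 to 1.09), and Ccnd3 251 and 315 CPM, 0.33 (0.15 to 0.51). Thinned, 38.0% of 187 Ctrl cDC2 (31.0 to 45.3) and 20.5% of 151 RES cDC2 (14.4 to 27.9) had a Ccnd1 UMI, and 86.6% and 68.2% did unthinned. Cdkn1a in cDC2 was at 75.7 and 108 CPM, 0.51 (0.19 to 0.83). Over all cells Ccnd1 was at 144 and 47.1 CPM, -1.62 (-1.71 to -1.53), and Ccnd2 at 308 and 200, -0.63 (-0.68 to -0.57). NK cells were 1433 of 3337 and 1416 of 4011 cells and cDC2 187 and 151, and the part of this makeup was not tested.

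Cdkn1a (chr17:29090976-29100727, plus), the p53-induced inhibitor of cyclin-dependent kinases, was seen in myeloid classes. In B cells it was at 108 and 40.6 CPM, with 90.9% of the 77 Ctrl and 100% of the 25 RES UMIs in 10 cells. It stood at 124 and 215 CPM in monocytes and macrophages, 0.79 (0.69 to 0.90), at 446 and 309 in migratory dendritic cells and at 14.6 and 8.87 in NK cells, -0.72 (-1.25 to -0.20). Within the myeloid cells it was 149 and 128 CPM in classical monocytes, -0.22 (-0.37 to -0.07), which turns above 0 on the per-cell scale, 93.7 and 119 in nonclassical monocytes, 0.34 (0.09 to 0.59), and 96.0 and 366 in macrophages, 1.93 (1.59 to 2.29). Intermediate monocytes had 114 and 309 CPM, 1.44 (1.09 to 1.80), with 2 Ctrl and 174 RES cells of theirs in cluster 17. Split by cluster, the macrophages of cluster 17 had 384 CPM of Cdkn1a in Ctrl (7 cells) and 388 in RES (333 cells), and those of cluster 13 had 63.0 in Ctrl (55 cells) and 0 UMIs in RES (11 cells).

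Ccnd1 in macrophages also differed between these clusters: 185 and 21.1 CPM over the class, -3.14 (-3.52 to -2.75), but 426 CPM in Ctrl and 324 in RES within cluster 13, with Poisson intervals of 349 to 514 and 200 to 495 that overlap, and 36.6 and 17.9 within cluster 17. In monocytes the D cyclins other than Ccnd3 were low: nonclassical monocytes had 9.87 and 2.07 CPM of Ccnd1, 50.8 and 51.0 of Ccnd2 and 260 and 295 of Ccnd3, and classical monocytes 8.09 and 4.58 of Ccnd1. Macrophages had 135 and 72.3 CPM of Ccnd2 and 80.0 and 82.4 of Ccnd3. Monocytes and macrophages together had 27.8 and 8.25 CPM of Ccnd1, 46.3 and 43.6 of Ccnd2 and 175 and 192 of Ccnd3. Ccne1 and Ccne2, the cyclins that fire DNA replication, were rare, with 57 and 68, and 51 and 42 UMIs over all cells, and 24.8% and 35.5% of these lay in dividing cells. In the larger classes they stayed under 50 UMIs: 16 and 24 for Ccne1 and 19 and 15 for Ccne2 in NK cells, 6 and 14, and 7 and 8 in monocytes and macrophages, and 5 and 5, and 6 and 2 in cDC2.

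**Figure D5:**
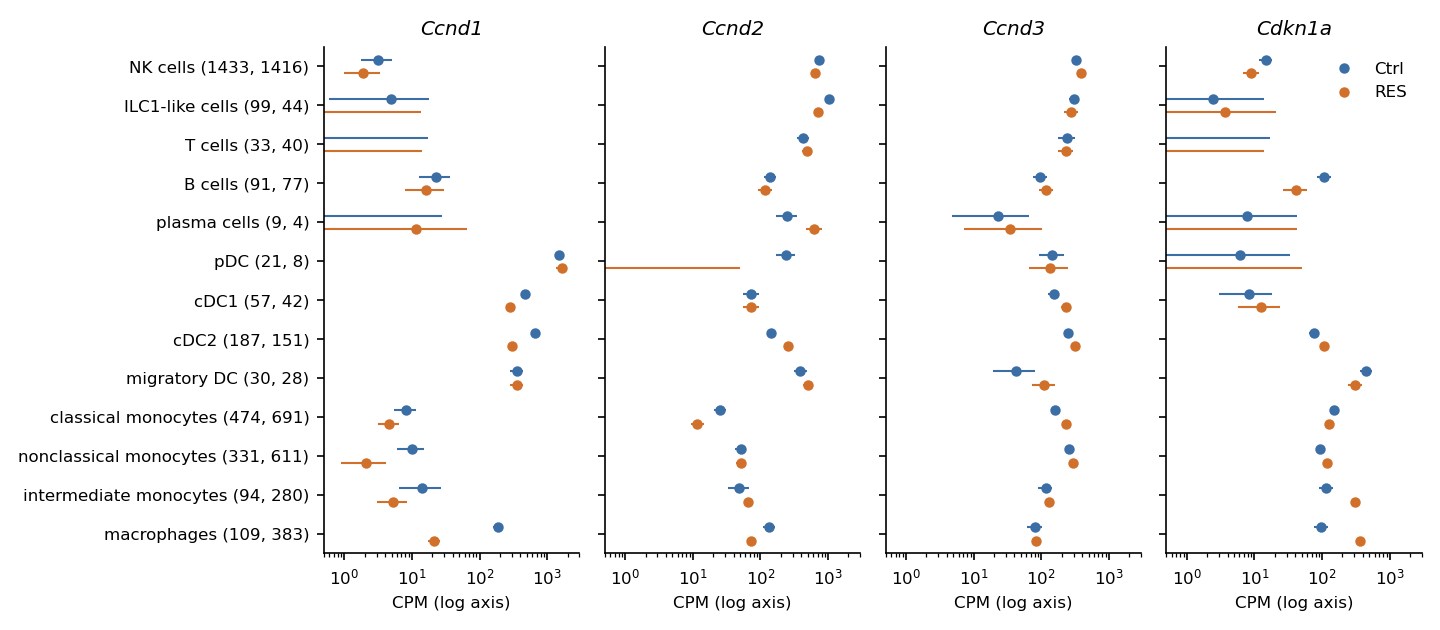
Points give the CPM of Ccnd1, Ccnd2, Ccnd3 and Cdkn1a in each class on a log axis, blue for Ctrl and orange for RES, with exact 95% Poisson intervals; a line with no point marks a count of 0, and cell numbers stand in brackets. Ccnd1 lies at 283 CPM or more in pDC, cDC1, cDC2 and migratory dendritic cells, Ccnd2 at 432 or more in NK, ILC1-like and T cells, and Cdkn1a at 93.7 or more in classical and nonclassical monocytes and macrophages.

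The kinases and other partners of the D cyclins were compared from the fixed lists in the same classes. In monocytes and macrophages 4 of 6 G1 kinase genes measured passed 1.5-fold upwards (10.5% of genes did) and 0 downwards (6.8% did), and the median log2 ratio of the 6 was 0.69, against 0.04 over all genes: Cdk4 (36.4 and 57.7 CPM), Cdk6 (24.0 and 39.2), the transcription factor Myc (3.93 and 16.8) and the phosphatase Cdc25b (2.53 and 4.51). This count was not seen within classical or nonclassical monocytes, where 1 of 5 (Myc, with 10 and 90 UMIs) and 0 of 4 were higher. In macrophages Myc (11 and 143 UMIs) and Cdk2 (4 and 51) were at least 1.5-fold higher (21.2% of genes were). Cdc25a (12 and 46 UMIs) was at least 1.5-fold lower there (17.6% were). The macrophage intervals of Cdk2 and Cdc25a span 0. Cdk4 was at 38.0 and 48.9 CPM in classical monocytes, 0.36 (0.08 to 0.65), and its interval in nonclassical monocytes spans 0. Cluster 17 held 13 Ctrl and 615 RES cells of the pooled class, and its part in the count was not tested. Of 9 brakes, 1 was higher, Wee1 (8 and 61 UMIs), and 0 lower, and Cdkn1b was at 156 and 131 CPM. Of 12 p53 targets there, 2 were higher, a share near that of all genes, Phlda3 (5.19 and 9.96 CPM) and Gadd45a (5.33 and 10.2), while Pmaip1 was at 59.5 and 40.2 CPM. In NK cells 0 of 6 G1 kinase genes passed 1.5-fold in either direction.

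Hmgb2, which is broadly expressed, was at 601 and 581 CPM in NK cells and 334 and 346 in monocytes and macrophages. Its intervals there span 0. In classical monocytes it was at 317 and 474 CPM, 0.58 (0.48 to 0.68), and in cDC2 at 321 and 179, -0.84 (-1.04 to -0.65). Stmn1 was at 110 and 83.4 CPM in NK cells, -0.39 (-0.57 to -0.22), at 75.1 and 35.0 in cDC2, -1.10 (-1.54 to -0.67), and at 7.02 and 6.22 in monocytes and macrophages. Without thinning, 10.2% of Ctrl and 8.61% of RES cDC2 had a Stmn1 UMI.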

How the data were processed

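The authors deposited, for each library, a matrix of UMI counts for genes by barcodes, which was not normalized. Cell Ranger 3.1.0 is named per the file headers, and bcl2fastq, Cell Ranger and mm10 per the submitters' processing notes; the annotation used for counting is not given in the sources used here. Libraries were made from sorted cells pooled from 5 mice each, per the labels' protocols.

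Barcodes below 200 genes or above 10% mitochondrial UMIs were dropped (245 in Ctrl, 121 in RES), and the highest Scrublet scores (0.8% per 1000 deposited barcodes; 109 and 146) were left out. Each cell was classed from marker lists: mean log2(CP10K + 1) over a list, relative to its 20 highest cells, had to reach 0.3 and lead the next list by 0.1, with at least 3 markers seen. No class was given to 322 and 181 cells, and stricter gates (0.45 and 0.2) changed 476 and 532 classed cells. Clusters came from scanpy 1.11.5 (Leiden resolution 1).

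UMIs were summed per class and library. Intervals at the 95% level are exact conditional binomial for ratios, Poisson for sums, Clopper-Pearson for shares and Newcombe for differences; they cover counting error only, and for a count of 0 the limit is 3 counts. There was 1 library per group, so no test was made. Genes with at least 50 UMIs were measured, and 1.5-fold was the size that counted. Functions were tested on simulated data. Alternatives changed the scaling, the filters on barcodes, doublets and genes, the gates, the thinning, the number of members asked for and the member with the most UMIs, and their effect is given at the end. Members and lists were chosen with earlier results of these data known. In each class compared, the members named are the 3 with the most UMIs per role, the highest and lowest ratio, and all G1 genes; other members were named after their values were seen.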

Additional observations from a re-analysis of the deposited data

Results flagged for a closer look

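The S-phase sum had intervals on opposite sides of 0 in different classes. Its log2 ratio RES to Ctrl was 0.18 in monocytes and macrophages, -0.21 in NK cells and -0.99 in cDC2. Each subset of the pooled monocytes and macrophages had an interval that spans 0. These were -0.10 to 0.27 in classical, -0.02 to 0.38 in nonclassical and -0.20 to 0.48 in intermediate monocytes, and -0.26 to 0.33 in macrophages. The difference between classes was not tested, since each class had 1 library per group. Counted per cell without scaling to depth, the NK value turned to 0.10 and the value in monocytes and macrophages was 0.65.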

How the results depend on the processing

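The 11 summary results were recomputed under 70 alternatives, and 53 of these stayed within the counting interval or 1.5 times the count. Counted as UMIs per cell, the log2 ratios were 0.067 (S-phase) and -0.40 (mitotic) over all cells, 0.10 and -0.046 in NK cells, and 0.65 and 0.11 in monocytes and macrophages. Size factors gave -0.36 for S-phase genes over all cells. Without Pcna that ratio was -0.55, without Cenpa the mitotic ratio was -1.06, and without Top2a the mitotic ratio in NK cells was -0.21; stricter gates gave -0.69 there. Differences in the share with mitotic genes were -0.15 percentage points over all cells and 1.03 in monocytes and macrophages without thinning, and -2.06 (all), -2.47 (NK) and -1.39 (monocytes and macrophages) with 1 or more genes. At 2-fold, 0 members were higher in place of 1. Of 8 alternatives chosen after seeing the data, 4 moved: leaving out dividing cells gave -0.31 (S-phase) and -0.43 (mitotic) over all cells, and RES classes weighted to Ctrl shares gave -0.19 and -0.46. Scaling by size factors shifted all genes by over 0.1 only in macrophages, by -0.11, of the 7 cell sets checked. No paired analysis was possible because each group had 1 library.

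With 1 library of 5 pooled mice per group, variation between mice is not measured, and every interval covers counting error only. Dividing cells were 42 and 28 in number, so a few cells set the mitotic values in T cells, plasma cells, B cells, cDC1 and macrophages. Thinning to 1000 UMIs left 38 and 19 cells with 2 or more mitotic genes.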

Other observations

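Among cells that fitted no class (322 in Ctrl and 181 in RES), mitotic genes stood at 287 and 155 CPM and S-phase genes at 296 and 203, with 6 and 5 dividing cells. Of the barcodes left out for their doublet score, 1 of 109 in Ctrl and 2 of 146 in RES had 5 or more mitotic genes.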
